A study of Mus musculus with 20 samples.

Results

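Liver gene expression was compared between female mice given minocycline (MINO) and female mice given vehicle (VEH) at the end of dosing, at age 12 weeks. The 5 MINO and 5 VEH columns of the deposited table for that age were used, 10 of the 20 samples of the series. Of the genes in that table, 13189 averaged 1 CPM or more across the 10 columns and were tested, and 3932 averaged less. CPM are reads of a gene per 1e6 reads of the library. All mice were C57BL/6T females of genotype SPF - Wild-type, where SPF stands for specific pathogen free. Minocycline at 100 mg/L, or vehicle, was given from age 6 to 12 weeks, by a route that is not given in the sources used here. These 10 mice were euthanized at age 12 weeks, and the other 10 of the series at age 18 weeks. RNA of whole liver, from the left lobe, was selected for polyadenylated transcripts and made into strand-specific libraries. VEH mice carried the numbers 40, 41, 42, 44 and 45 and MINO mice the numbers 46, 47, 48, 50 and 51, and values per mouse are given in this order. The spacing of the lowest values put the depth at 12450000 reads in VEH mouse 44, the shallowest library, and at 28600000 reads in MINO mouse 51, the deepest.

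Minocycline is a tetracycline antibiotic, a class that blocks the bacterial ribosome. Hepatocytes make bile acids from cholesterol, with CYP7A1 as the rate-limiting enzyme, and gut bacteria convert them into forms that signal back through the nuclear receptor FXR in intestine and liver and through FGF15, which acts on FGFR4 and β-Klotho at the hepatocyte surface. The liver also runs a circadian clock, in which CLOCK and ARNTL switch on the genes of their own repressors, and much of its metabolic expression follows time of day and feeding.

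Libraries differed in ways that treatment does not describe. VEH mouse 41 had 9675 CPM of transcripts from the mitochondrial genome and MINO mouse 48 had 21008 CPM, where the other 8 mice had 30474 to 54825 CPM. This VEH mouse also had the highest sums of class II antigen presentation genes, 896 CPM against 101 to 294 CPM in the other 9 mice, of T cell markers (19.2 against 2.56 to 5.93 CPM) and of NK cell markers (10.1 against 1.38 to 2.78 CPM). VEH mouse 40 had the highest sum of immediate early genes, 911 CPM, and VEH mice 42 and 44 and MINO mouse 51 had low *Dbp* with high *Arntl* within their groups. MINO mouse 46 carried 1043 CPM of exocrine pancreas markers, which were 11.2 to 26.6 CPM in the other 9 mice. The part of these differences in the results was not tested. No pair of libraries was identical, and rank correlations of libraries over the tested genes were 0.963 to 0.986 within VEH and 0.967 to 0.991 within MINO, where genes are not independent.

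In MINO livers, transcripts of *Nampt*, of the P450 reductase *Por* and of the glycogen synthase *Gys2* were higher, and those of the bile salt exporter *Abcb11*, of 6 of 11 Kupffer cell markers and of 8 of 12 sinusoidal endothelial markers were lower. These were 54.5% and 66.7% of the markers, beside 9.36% of all genes by the measure given below. The rescaling described below left 2 and 4 of them. Without VEH mouse 40, 0 of 5 named Kupffer cell and 0 of 7 named endothelial markers passed. The mean of *Nampt*, an enzyme of NAD salvage, was 130.2 ± 18.7 CPM in MINO against 60.4 ± 15.5 CPM in VEH mice (SD, n = 5). That of *Abcb11* was 463 ± 53.6 CPM in MINO against 752 ± 54.2 CPM in VEH mice (SD, n = 5). Each gene was compared on log2(CPM + 0.5) with limma, a linear model that shares information on variance among genes, and is said to be called where its p, adjusted by the Benjamini-Hochberg method over all tested genes, was under 0.05. By this measure 1235 genes were lower in MINO mice (9.36%) and 129 were higher (0.978%), with a lowest adjusted p of 0.00455. At an unadjusted limma p under 0.05, 3230 genes were lower (24.5%) and 577 higher (4.37%), the shares against which unadjusted counts of lists are set below. By an unadjusted limma p under 0.05 together with a change of 2-fold or more, 119 were lower (0.902%) and 46 higher (0.349%). The 5 MINO values lay entirely below the 5 VEH values in 1228 genes (9.31%) and entirely above them in 122 (0.925%). These counts changed with the mice that were included. With the 4 mice per group that the study's transcript count table lists, which leaves out VEH mouse 40 and MINO mouse 50, limma called 0 genes lower and 0 higher of 13188, the lowest adjusted p being 0.0879. In these mice 2230 genes were lower and 338 higher at an unadjusted p under 0.05, and 91 and 38 with a 2-fold change as well. Leaving out 1 mouse gave 101 lower and 22 higher genes without VEH mouse 40, 526 and 49 without VEH mouse 44, 664 and 61 without MINO mouse 46, 338 and 45 without MINO mouse 47, 547 and 65 without MINO mouse 48, and 398 and 35 without MINO mouse 50. With the 2-fold change, lower genes numbered 206 without VEH mouse 45 and 223 without MINO mouse 51. The median log2 fold change of all tested genes, MINO minus VEH, was -0.10. Rescaling, in which each library is divided by its median ratio to the log-scale mean of the 10 libraries, shifted this median by 0.12, to 0.01. After rescaling, limma called 436 genes lower (3.31%) and 309 higher (2.34%), so that lower genes were 58.5% of the called genes against 90.5% before. The 436 lower genes had all been called lower before, and 129 of the 309 higher genes had been called higher.

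**Figure D1:**
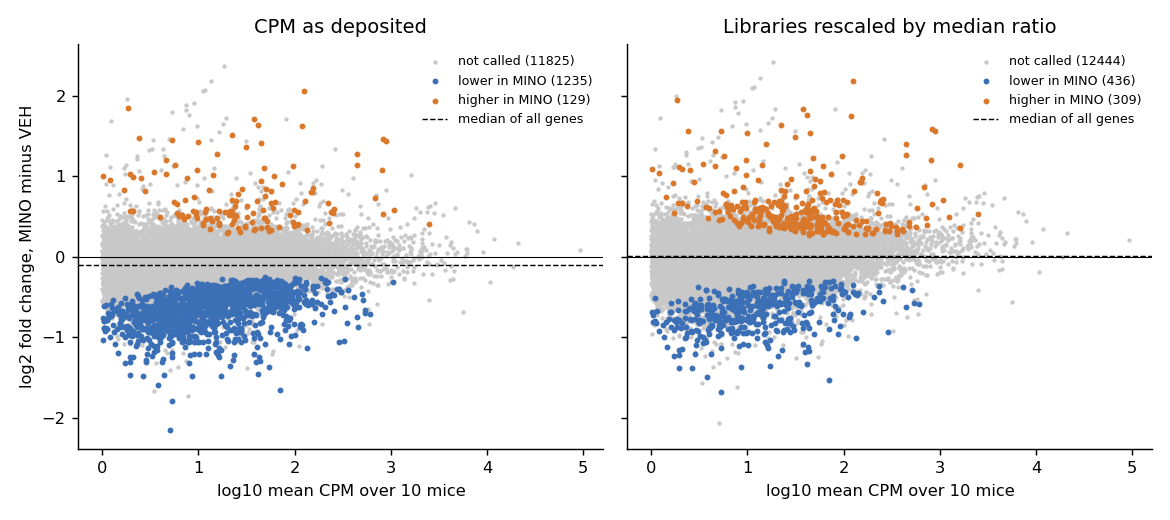
Log2 fold change of each tested gene, MINO minus VEH, against its log10 mean CPM over the 10 mice, for CPM as deposited (left) and after rescaling of each library (right). Blue and orange points are genes with a limma adjusted p under 0.05, and the dashed line is the median of all genes; 1235 genes are blue on the left and 436 on the right.

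The 10 largest rises by the rule for named genes were of varied roles and were chosen by their size, not as members of a pathway. *Nampt*, the rate-limiting enzyme of NAD salvage from nicotinamide (chr12:32819545-32853349, in the GENCODE M21 annotation of GRCm38, as are the other gene positions), had VEH values of 59.3, 64.3, 56.2, 39.6 and 82.7 and MINO values of 154, 117, 106, 134 and 139.7 CPM. Each MINO value exceeded the highest VEH value (log2 fold change 1.13, standard error 0.17, limma adjusted p = 0.0136). *Nmrk1*, a kinase that turns nicotinamide riboside into an NAD precursor (chr19:18631950-18652428), had VEH values of 12.4, 10.3, 8.25, 8.65 and 17.99 and MINO values of 34.4, 35.99, 31.7, 41.7 and 21.9 CPM. The groups did not overlap here either (log2 fold change 1.51, standard error 0.21, limma adjusted p = 0.0115). *Slc16a5*, a monocarboxylate transporter family member (chr11:115462474-115474398), had VEH values of 22.5, 29.6, 17.5, 21.9 and 29.3 and MINO values of 59.2, 52.4, 58.2, 92.8 and 64.8 CPM, with no overlap and MINO mouse 50 the highest (log2 fold change 1.42, standard error 0.17, limma adjusted p = 0.00591). *Mt1*, which encodes a metallothionein that binds zinc and copper, had VEH values of 324, 189, 205, 179 and 418 and MINO values of 611, 591, 831, 427 and 631 CPM. VEH mouse 45, at 418 CPM, lay just under MINO mouse 50, at 427 CPM (log2 fold change 1.28, standard error 0.24, limma adjusted p = 0.0163). *Nrg4*, a secreted ligand of the ERBB4 receptor, had VEH values of 6.56, 2.995, 5.05, 2.82 and 9.63 and MINO values of 13.2, 10.4, 11.01, 20.4 and 17.1 CPM (log2 fold change 1.42, standard error 0.30, limma adjusted p = 0.0197). Others were *Nrep* (1.71, limma adjusted p = 0.0136), *Acot3* (1.62, limma adjusted p = 0.0140), *Dsg1c* (1.46, limma adjusted p = 0.0172) and *Lonrf1* (1.08, limma adjusted p = 0.0214). For *Dsg1c* and *Acot3*, 29.6% and 19.5% of 50-base stretches of the longest transcript occur in another gene as well, and how reads of such stretches were counted is not given in the sources used here. Of these 9 genes, 9 were called after rescaling. When 1 mouse was left out, 6 without VEH mouse 40, 8 without MINO mouse 47 and 8 without MINO mouse 50 were called.

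The 10 largest falls by the same rule had varied roles as well. *Sgk2*, a serine/threonine kinase (chr2:162987330-163014127), had VEH values of 64.6, 62.2, 56.1, 60.6 and 67.8 and MINO values of 17.9, 29.1, 29.8, 20.8 and 30.9 CPM. The VEH mice lay within 56.1 to 67.8 CPM and every MINO mouse was below them (log2 fold change -1.29, standard error 0.15, limma adjusted p = 0.00591). *Pxdn*, an extracellular matrix peroxidase (chr12:29937608-30017658), had VEH values of 15.6, 12.6, 14.97, 15.6 and 13.3 and MINO values of 5.71, 5.29, 5.303, 5.604 and 8.14 CPM. It had the lowest limma p of all tested genes, and MINO mouse 51 stood above the other MINO mice (log2 fold change -1.21, standard error 0.13, limma adjusted p = 0.00455). *Syne1*, a large nuclear envelope protein (chr10:5020917-5551482), had VEH values of 31.3, 22.6, 28.1, 39.5 and 29.6 and MINO values of 8.27, 12.1, 8.92, 10.8 and 19.2 CPM (log2 fold change -1.35, standard error 0.21, limma adjusted p = 0.0137). *Atp2b2*, a plasma membrane calcium pump, had VEH values of 9.93, 8.95, 5.299, 12.7 and 5.45 and MINO values of 0.989, 1.69, 1.78, 1.71 and 5.099 CPM. MINO mouse 51, at 5.099 CPM, was close to VEH mice 42 and 45, and the other MINO mice were below 2 CPM (log2 fold change -1.79, standard error 0.33, limma adjusted p = 0.0160). *Cd93*, a receptor of endothelial and myeloid cells, had VEH values of 9.14, 6.01, 9.72, 6.33 and 6.32 and MINO values of 3.69, 1.64, 1.48, 3.84 and 4.75 CPM (log2 fold change -1.24, standard error 0.28, limma adjusted p = 0.0222). The others were *Nr1d1* (-1.66, limma adjusted p = 0.0181), *Depp1* (-1.46, limma adjusted p = 0.0212), *Ndrg1* (-1.28, limma adjusted p = 0.0214), *Slc15a3* (-1.20, limma adjusted p = 0.0194) and *Eps8l2* (-1.20, limma adjusted p = 0.0184). Of these 10 genes, 10 were called after rescaling. Limma called 3 without VEH mouse 40 and 8 without MINO mouse 47 when 1 mouse was left out.

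**Figure D2:**
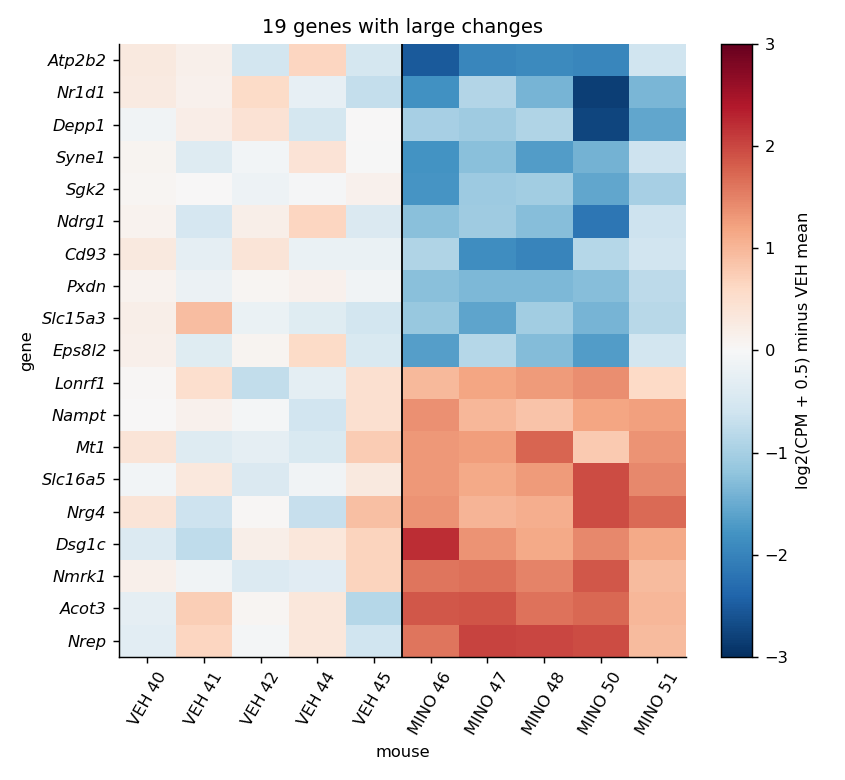
Log2(CPM + 0.5) of 19 of the 20 genes with the largest changes (rows) in each of the 10 mice (columns), relative to the mean of the 5 VEH mice, in blue where lower and in red where higher. Each row separates the 5 VEH from the 5 MINO mice, as the rule that chose these genes required.

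Of 37 tested genes of bile acid synthesis, transport and signaling, 5 were lower (13.5%) and 1 was higher, beside 9.36% and 0.978% of all genes, which is near the background and no result about the list, and the list's median log2 fold change was -0.09 against -0.10. *Abcb11*, the bile salt export pump (chr2:69238282-69342616), had VEH values of 749, 702, 727, 844 and 739 and MINO values of 461, 489, 412, 414 and 539 CPM. The highest MINO value was under the lowest VEH value (log2 fold change -0.70, standard error 0.10, limma adjusted p = 0.0110), and the rescaled log2 fold change was -0.58. *Hsd3b7*, an enzyme of the steroid ring steps of synthesis, had VEH values of 586, 525, 501, 713 and 459 and MINO values of 267, 397, 359, 263 and 378 CPM (log2 fold change -0.75, standard error 0.15, limma adjusted p = 0.0184). For this gene 70.5% of 50-base stretches also occur in *Gm49388*, which overlaps it on the same strand. *Klb*, which encodes β-Klotho, had VEH values of 50.6, 46.6, 46.3, 49.7 and 45.5 and MINO values of 31.3, 34.9, 25.4, 33.9 and 42.9 CPM, with no overlap (log2 fold change -0.52, standard error 0.12, limma adjusted p = 0.0245, exact permutation p = 0.00794). This test is 2-sided over all ways of assigning 5 of the 10 mice to a group, its smallest possible p is 0.00794, and 17 genes were tested with it, of which 6 had a p under 0.05 and the other 11 had 0.103 to 0.881. *Atp8b1*, a canalicular phospholipid flippase, and *Nr5a2*, a nuclear receptor that drives *Cyp7a1* and *Cyp8b1*, were lower, with log2 fold changes of -0.47 and -0.45 (limma adjusted p = 0.0266 and 0.0265). *Nr1h4*, which encodes FXR, had VEH values of 76.3, 96.8, 76.05, 78.5 and 77.6 and MINO values of 121, 104, 116, 111 and 96.8 CPM. VEH mouse 41 lay just above MINO mouse 51, the lowest MINO mouse, and the other VEH mice were lower than all MINO mice (log2 fold change 0.44, standard error 0.09, limma adjusted p = 0.0208, exact permutation p = 0.0159). After rescaling, *Klb*, *Atp8b1* and *Nr5a2* had limma adjusted p-values of 0.0694, 0.0845 and 0.0920. Of these 6 genes, 3 were called after rescaling. Leaving out 1 mouse left 1 without VEH mouse 40, 3 without VEH mouse 44, 4 without MINO mouse 46, 3 without MINO mouse 47, 5 without MINO mouse 48 and 3 without MINO mouse 50 called.

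*Cyp7a1*, *Cyp8b1* and *Nr0b2*, which encodes the FXR target SHP, varied widely among VEH mice, while the synthesis enzyme *Cyp27a1* was at 567 ± 26.8 CPM (SD, n = 5). *Cyp7a1* (chr4:6265612-6275633) had VEH values of 307, 84.8, 49.4, 135 and 284 and MINO values of 404, 381, 262, 443 and 294 CPM. VEH mice 40 and 45 lay within the MINO range (log2 fold change 1.34, standard error 0.43, limma adjusted p = 0.0657, exact permutation p = 0.0397). *Cyp8b1*, the sterol 12α-hydroxylase, had VEH values of 218, 172, 211, 301 and 116 and MINO values of 97.4, 111, 104, 130.03 and 226 CPM (log2 fold change -0.61, standard error 0.26, limma adjusted p = 0.150, exact permutation p = 0.103), and the groups overlapped. *Nr0b2* had VEH values of 17.4, 53.5, 82.3, 47.9 and 57.8 and MINO values of 45.8, 27.01, 31.2, 20.4 and 31.9 CPM (log2 fold change -0.61, standard error 0.34, limma adjusted p = 0.267, exact permutation p = 0.183). VEH mouse 40 was the lowest of all 10. *Fgfr4*, the FGF15 receptor, had VEH values of 53.4, 63.8, 41.1, 57.5 and 47.6 and MINO values of 38.1, 38.05, 40.9, 37.9 and 46.5 CPM (log2 fold change -0.37, standard error 0.12, limma adjusted p = 0.0653, exact permutation p = 0.0159). VEH mouse 42 lay under MINO mouse 51, so the groups overlapped. *Cyp27a1*, *Cyp7b1*, *Slc27a5* and *Baat*, of the alternative pathway and of conjugation, had log2 fold changes of 0.04, 0.04, 0.10 and -0.14, with adjusted limma p-values from 0.338 to 0.907. Limma called *Cyp7a1* higher without VEH mouse 45 (limma adjusted p = 0.0328), *Cyp8b1* lower without MINO mouse 51 (0.0390) and *Fgfr4* lower without VEH mouse 42 (0.0306) or without MINO mouse 51. The log2 fold change of *Nr0b2*, not called with any mouse left out, was -0.96 without VEH mouse 40 and -0.40 without VEH mouse 42.

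**Figure D3:**
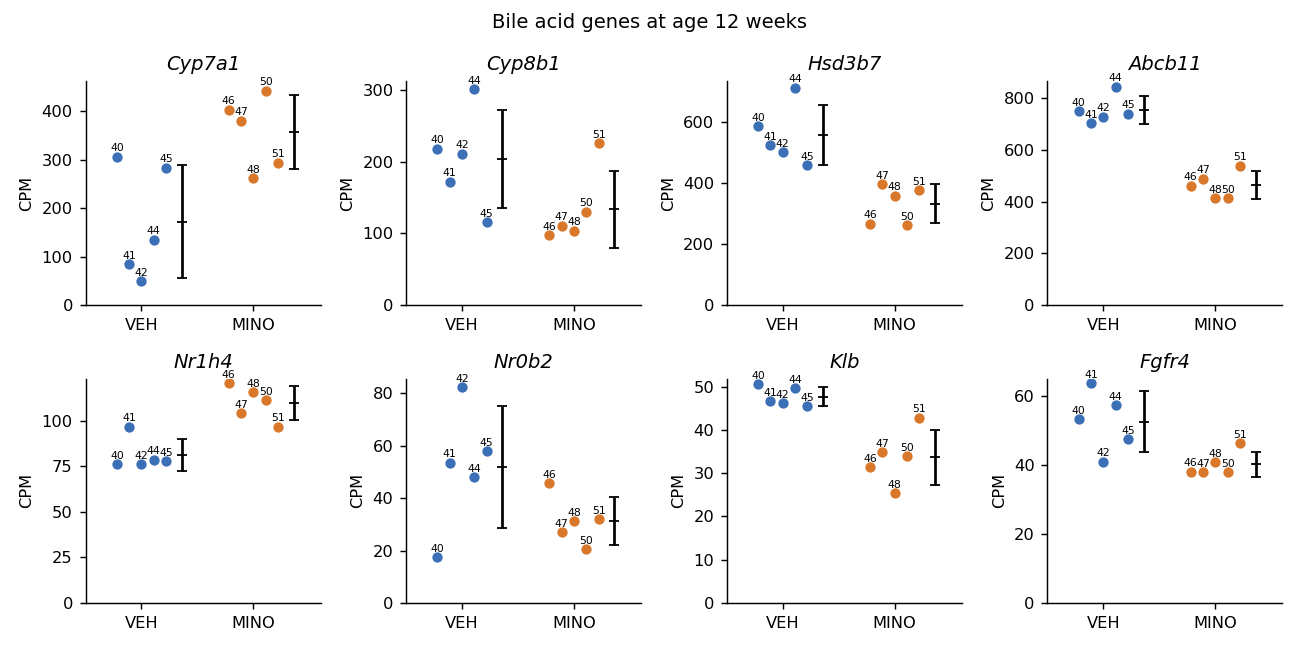
CPM of 8 bile acid genes in each mouse, labelled by mouse number, with the mean and SD of each group beside the points (n = 5). *Abcb11*, *Hsd3b7* and *Klb* separate the groups, and *Cyp7a1* spans 49.4 to 307 CPM in VEH mice.

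Of 23 tested genes of the clock list, limma called 1 lower (4.35%, beside 9.36% of all genes) and 3 higher (13%, beside 0.978%), and the median log2 fold change was 0.02. *Nr1d1*, which encodes the repressor REV-ERBα (chr11:98767932-98775333), had VEH values of 120.2, 109, 150.4, 84.2 and 61.1 and MINO values of 27.998, 54.6, 37.9, 13.8 and 38.2 CPM. VEH mouse 45, at 61.1 CPM, was the lowest VEH mouse and was still above MINO mouse 47, the highest MINO mouse (log2 fold change -1.66, standard error 0.33, limma adjusted p = 0.0181, exact permutation p = 0.00794). *Nr1d1* overlaps *Thra* on the opposite strand, and whether reads were counted by strand is not given in the sources used here. Of the repressors, *Per2* had VEH values of 20.3, 16.04, 9.78, 9.69 and 37.5 and MINO values of 44.9, 46.3, 37.7, 52.1 and 35.6 CPM. VEH mouse 45 lay within the MINO range (log2 fold change 1.36, standard error 0.31, limma adjusted p = 0.0228). *Cry1* had VEH values of 8.82, 9.92, 6.501, 10.2 and 8.92 and MINO values of 16.7, 9.63, 13.1, 25.2 and 19.6 CPM, with MINO mouse 47 below VEH mice 41 and 44 (log2 fold change 0.83, standard error 0.22, limma adjusted p = 0.0355). *Arntl*, which encodes the partner of CLOCK, had VEH values of 4.22, 3.23, 7.65, 14.4 and 1.83 and MINO values of 1.35, 0.821, 1.02, 2.54 and 7.51 CPM (log2 fold change -1.16, standard error 0.55, limma adjusted p = 0.185, exact permutation p = 0.119). *Dbp*, an output factor, had VEH values of 164, 251, 34.3, 13.7 and 168 and MINO values of 173, 268, 330.3, 100.1 and 52.3 CPM (log2 fold change 0.92, standard error 0.76, limma adjusted p = 0.462, exact permutation p = 0.349). Both overlapped between groups, VEH mice 42 and 44 and MINO mouse 51 being highest in *Arntl* and lowest in *Dbp* within their groups. *Per1* had VEH values of 57.9, 11.2, 54.2, 43.5 and 77.7 and MINO values of 71.4, 63.1, 52.3, 65.4 and 69.3 CPM, where VEH mouse 41 was the lowest of the 10 (log2 fold change 0.62, standard error 0.40, limma adjusted p = 0.333, exact permutation p = 0.198). Leaving out VEH mouse 41 took the log2 fold change of *Per1* to 0.16, and leaving out VEH mouse 44 took that of *Dbp* to 0.29 and that of *Arntl* to -0.80, none of them called. The hour at which each liver was taken is not given in the sources used here. Of these 3 called genes, 3 were called after rescaling. When 1 mouse was left out, 0 without VEH mouse 40, 2 without VEH mouse 42, 2 without VEH mouse 44, 2 without MINO mouse 46, 2 without MINO mouse 47, 2 without MINO mouse 48, 1 without MINO mouse 50 and 2 without MINO mouse 51 were called, and all 3 had an unadjusted limma p under 0.05 where the count was 0.

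Clock factors bind short DNA elements, the E-box CACGTG for CLOCK with ARNTL and the D-box TTATGTAA for DBP and its relatives, and promoters of clock genes are shown because members of that list moved in both directions. In RefSeq windows of GRCm38.p6, from 250 bases before to 50 after the start, 7.15% of 32851 windows held an E-box and 0.938% a D-box on either strand. Of the 26 windows found for 18 clock genes, 6 held an E-box (23.1%), in *Bhlhe41*, *Ciart*, *Cry1*, *Per1* and *Tef*, and 1 held a D-box, in *Per3*. Of the 16 windows found for 11 of the 20 genes with the largest changes, 0 held an E-box and 1 a D-box, in *Atp2b2*. The windows of *Cry1*, which was higher, of *Per1*, which was not called, and of *Per3*, the 1 with a D-box, are given 5′ to 3′ on the strand of the gene with the motifs in capitals. They lie at chr10:85185005-85185304 (minus strand), chr11:69098699-69098998 (plus strand) and chr4:151044616-151044915 (minus strand). A match is a description of these letters only.
Cry1: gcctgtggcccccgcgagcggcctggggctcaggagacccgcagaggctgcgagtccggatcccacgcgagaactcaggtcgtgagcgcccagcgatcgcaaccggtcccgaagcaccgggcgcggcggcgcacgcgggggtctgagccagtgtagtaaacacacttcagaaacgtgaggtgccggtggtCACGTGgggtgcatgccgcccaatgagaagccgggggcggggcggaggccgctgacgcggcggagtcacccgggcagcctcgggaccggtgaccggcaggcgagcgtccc
Per1: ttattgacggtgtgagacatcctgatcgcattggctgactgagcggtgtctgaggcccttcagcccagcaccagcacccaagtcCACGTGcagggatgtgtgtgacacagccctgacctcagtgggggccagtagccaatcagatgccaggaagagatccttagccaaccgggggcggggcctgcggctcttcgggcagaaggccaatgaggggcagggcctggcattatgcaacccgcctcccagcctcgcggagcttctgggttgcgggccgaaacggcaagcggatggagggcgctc
Per3: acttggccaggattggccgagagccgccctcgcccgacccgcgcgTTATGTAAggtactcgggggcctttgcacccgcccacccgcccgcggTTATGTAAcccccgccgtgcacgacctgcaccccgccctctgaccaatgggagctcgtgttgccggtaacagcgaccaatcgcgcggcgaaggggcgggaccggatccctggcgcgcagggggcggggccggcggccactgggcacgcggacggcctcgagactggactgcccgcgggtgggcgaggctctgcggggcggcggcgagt

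**Figure D4:**
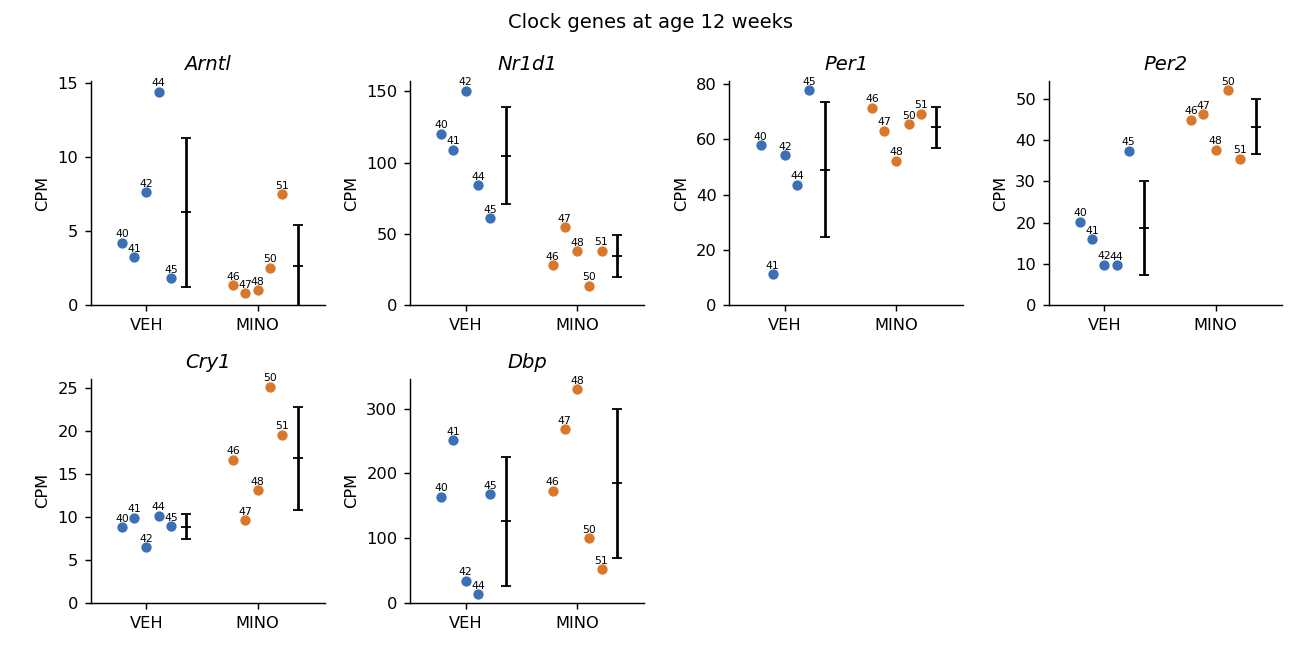
CPM of 6 clock genes in each mouse, labelled by mouse number, with the mean and SD of each group beside the points (n = 5). *Nr1d1* separates the groups, while *Dbp* spans 13.7 to 251 CPM in VEH mice, and the bar of *Arntl* in MINO mice ends at 0.

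Of 23 tested lipogenic genes, 2 were lower and 2 higher (median log2 fold change -0.15). The lower genes were 8.7% of this list, 12% of the cholesterol synthesis list and 3.23% of the fatty acid oxidation list, near or below the 9.36% of all genes and no results about the lists. The higher ones were 8.7%, 0% and 6.45%, beside 0.978% of all genes. *Thrsp*, a lipogenic regulator, had VEH values of 665, 499.7, 199, 203 and 819 and MINO values of 1004, 801, 1393, 1819 and 853 CPM. VEH mouse 45 lay above MINO mouse 47, and VEH mice 42 and 44 were the lowest (log2 fold change 1.46, standard error 0.40, limma adjusted p = 0.0395). *Fads2*, the delta-6 desaturase, was higher without overlap (0.53, limma adjusted p = 0.0197), while the elongase *Elovl5* (-0.82, 0.0315) and *Gpam*, the first enzyme of glycerolipid synthesis (-0.56, 0.0263), were lower. Of 25 cholesterol synthesis genes, limma called 3 lower and 0 higher (median -0.15, 5 lower and 0 higher at an unadjusted limma p under 0.05, beside 24.5% and 4.37% of all genes). These were the regulators *Insig2* (-0.85, limma adjusted p = 0.0441), *Insig1* (-0.66, limma adjusted p = 0.0268) and *Srebf2* (-0.34, limma adjusted p = 0.0309), whose adjusted p-values after rescaling were 0.0976, 0.0532 and 0.159. Of 31 genes of fatty acid oxidation and PPARα, 1 was lower and 2 were higher (median 0.13). The acyl-CoA thioesterase *Acot4* had VEH values of 85.4, 129.996, 118, 116 and 87.03 and MINO values of 200.2, 203, 175, 197 and 156 CPM, with no overlap (log2 fold change 0.81, standard error 0.13, limma adjusted p = 0.0140), and its neighbor *Acot3* was higher as well. *Pdk4*, which restrains pyruvate oxidation, had VEH values of 4.13, 3.96, 16.4, 6.41 and 3.47 and MINO values of 2.203, 0.684, 1.53, 1.66 and 3.77 CPM. VEH mouse 42 was far above the other mice (log2 fold change -1.46, standard error 0.41, limma adjusted p = 0.0422). Of these 10 genes, 5 were called after rescaling. Limma called 2 without VEH mouse 40, 9 without VEH mouse 41, 6 without VEH mouse 42, 5 without VEH mouse 44, 3 without MINO mouse 46, 3 without MINO mouse 47, 5 without MINO mouse 48 and 2 without MINO mouse 50 when 1 mouse was left out.

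Of 24 genes of glucose, glycogen and insulin signaling, 3 were lower and 1 was higher (median -0.20). The lower genes were 12.5% of this list, 7.69% of the growth hormone list and 12.5% of the drug metabolism list, near the 9.36% of all genes and no results about the lists, and the higher ones 4.17%, 7.69% and 8.33%, beside 0.978% of all genes. *Gys2*, the liver glycogen synthase, had VEH values of 115, 103, 119, 75.1 and 137 and MINO values of 196, 231, 189.8, 171 and 163 CPM, and the groups did not overlap (log2 fold change 0.81, standard error 0.15, limma adjusted p = 0.0163). The lower genes were *Depp1*, *Sgk2* and *Trib3*, a pseudokinase (-1.21, limma adjusted p = 0.0318). Of 26 genes of growth hormone, STAT5 and IGF1, 2 were lower and 2 higher (median 0.04). *Stat5b*, the main growth hormone transducer in liver, had VEH values of 72.97, 74.5, 74.8, 80.5 and 65.6 and MINO values of 53.8, 42.9, 42.1, 43.5 and 55.7 CPM (log2 fold change -0.63, standard error 0.10, limma adjusted p = 0.0140), and the kinase *Jak2* was lower as well (log2 fold change -0.52, limma adjusted p = 0.0215). *Cyp2b13*, which is female-biased, was higher (0.55, limma adjusted p = 0.0375), and *Igf1* had VEH values of 535, 487, 677, 739 and 500.3 and MINO values of 583, 653, 517, 769 and 688 CPM (log2 fold change 0.13, standard error 0.14, limma adjusted p = 0.579, exact permutation p = 0.381). Of 24 genes of drug metabolism and oxidative stress, 3 were lower and 2 higher (median -0.07). *Por*, the reductase that supplies electrons to the cytochromes P450, had VEH values of 452, 536, 558, 357 and 737 and MINO values of 1090.3, 828, 1081, 1314 and 1162 CPM. The lowest MINO value was above the highest VEH value (log2 fold change 1.08, standard error 0.18, limma adjusted p = 0.0140). *Nr1i3*, which encodes the xenobiotic receptor CAR, was higher as well (0.60, limma adjusted p = 0.0301), and *Gstm3* (-0.59, limma adjusted p = 0.0249), *Gclc* (-0.58, limma adjusted p = 0.0308) and *Srxn1* (-0.38, limma adjusted p = 0.0313) were lower. For *Gstm3* and *Cyp2b13*, 28.8% and 27.3% of 50-base stretches also occur in another gene, and for *Stat5b* 11.8%. Of these 12 genes, 9 were called after rescaling. Leaving out 1 mouse left 4 without VEH mouse 40, 8 without VEH mouse 41, 10 without VEH mouse 42, 8 without VEH mouse 44, 7 without MINO mouse 46, 5 without MINO mouse 47, 7 without MINO mouse 48 and 7 without MINO mouse 50 called.

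Of 27 genes of the integrated stress and unfolded protein responses, limma called 4 lower (14.8%, beside 9.36% of all genes) and 0 higher (median -0.20, 11 lower and 1 higher at an unadjusted limma p under 0.05, or 40.7% and 3.7% beside 24.5% and 4.37% of all genes). After rescaling the lower ones were no longer called, and *Hspe1*, named after its values were seen, was called higher. Beside *Trib3* they were the stress hormone *Gdf15* (-1.19, limma adjusted p = 0.0476), the chaperone *Pdia4* (-0.70, limma adjusted p = 0.0324) and the transcription factor *Atf5* (-0.62, limma adjusted p = 0.0429). The 15 tested mitochondrial genome transcripts all had log2 fold changes above 0 (median 0.54) and limma called 0, with a lowest adjusted p of 0.163 and 0 lower and 1 higher at an unadjusted limma p under 0.05 (6.67%, beside 4.37% of all genes). Their sums per mouse had VEH values of 30474, 9675, 46025, 45895 and 41645 and MINO values of 47934, 54825, 21008, 46764 and 41387 CPM. Of 82 mitochondrial ribosome genes 1 was higher (*Mrpl20*, 0.40), of 88 nuclear OXPHOS subunits 1 (*Ndufv2*, 0.37), and of 86 cytosolic ribosome genes 2 (*Rps10*, 0.39, and *Rps27l*, 0.34), or 1.22%, 1.14% and 2.33%, near the 0.978% of all genes and by this count no results about the lists. Limma called 0 lower in each, and at an unadjusted limma p under 0.05 there were 7, 19 and 9 higher genes (8.54%, 21.6% and 10.5%, beside 4.37% of all genes) and 0 lower ones, beside 24.5% of all genes. For *Rps10*, 51.8% of 50-base stretches also occur in another gene. The medians were 0.14, 0.24 and 0.18, all above that of all genes, and the rescaling gave 4, 10 and 3 higher genes by adjusted p, or 4.88%, 11.4% and 3.49%, beside 2.34% of all genes.

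Beside the 9.36% of all genes that were lower, the immune, metal, hepatokine and immediate early lists had shares of genes lower by adjusted p near that background or below it, which are no results about the lists. Of 27 genes of innate immunity and the acute phase limma called 0 (median -0.17, 5 lower and 0 higher at an unadjusted limma p under 0.05, the lower ones being 18.5% beside 24.5% of all genes). Of 16 interferon response genes 1 was lower (*Ifit2*, -0.80), of 15 antigen presentation genes 1 (*H2-DMb1*, -0.85) and of 14 immediate early genes 1 (*Klf6*, -0.63), or 6.25, 6.67 and 7.14%, with medians of -0.29, -0.57 and -0.27. At an unadjusted limma p under 0.05, 37.5%, 40% and 21.4% of these 3 lists were lower, beside the 24.5%. The 7 class II genes of the antigen presentation list, among them *H2-DMb1*, had sums per mouse with VEH values of 294, 896, 182, 166 and 119 and MINO values of 114, 101, 136, 108 and 122 CPM, so that VEH mouse 41 stood far above the others. For *H2-DMb1*, 27.2% of 50-base stretches also occur in another gene. Of 18 genes of metal handling, 2 were lower (11.1%) and 1 higher (5.56%, beside 0.978% of all genes, median 0.01). Beside *Mt1*, the manganese exporter *Slc30a10* had VEH values of 52.2, 55.5, 66.5, 79.6 and 30.8 and MINO values of 16.8, 18.3, 17.2, 23.5 and 38.4 CPM, with VEH mouse 45 below MINO mouse 51 (log2 fold change -1.31, standard error 0.27, limma adjusted p = 0.0184), and the importer *Slc39a8* was lower without overlap (-0.55, limma adjusted p = 0.0158). Of 21 hepatokine genes, 1 was lower, *Gdf15* (4.76%), and 2 were higher (9.52%, beside the 0.978%, median 0.13). *Tsku*, a secreted leucine-rich protein, had VEH values of 30.99, 25.8, 42.3, 32.8 and 156 and MINO values of 242, 146, 129.9, 280.04 and 177 CPM. VEH mouse 45 lay within the MINO range and far from the other VEH mice (log2 fold change 2.06, standard error 0.42, limma adjusted p = 0.0184, exact permutation p = 0.0238). *Rbp4*, the retinol carrier, was higher without overlap (0.41, limma adjusted p = 0.0451). Of 7 cell division genes 2 were lower (28.6%, beside the 9.36%), *Mki67* (-1.14) and *Top2a* (-1.06), and of 4 nuclear-retained RNAs limma called 0, with 0 lower and 0 higher at an unadjusted limma p under 0.05 (medians -0.56 and 0.10). *Top2a* averaged 2.88 CPM in VEH and 0.9997 CPM in MINO mice, so it reached the filter only through the VEH mice. Of the stress, ribosome, immune, metal, hepatokine and division genes named with a fold change, 18 in all, 11 were called after rescaling. When 1 mouse was left out, 2 without VEH mouse 40, 9 without VEH mouse 41, 11 without VEH mouse 42, 8 without VEH mouse 44, 16 without VEH mouse 45, 6 without MINO mouse 46, 5 without MINO mouse 47, 7 without MINO mouse 48, 5 without MINO mouse 50 and 15 without MINO mouse 51 were called.

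Markers of Kupffer cells, sinusoidal endothelium and stellate cells were among the genes that were lower in MINO mice. Fewer cells of a type and less RNA per cell cannot be told apart in whole tissue. Members of these and the other lists were chosen with earlier results of these data known. Their shares beside those of all genes are therefore descriptions and no independent support. Of 11 Kupffer cell markers, all tested, limma called 6 lower and 0 higher (10 lower and 0 higher at an unadjusted limma p under 0.05), or 54.5% lower beside 9.36% of all genes and 90.9% beside 24.5% without adjustment, and the median log2 fold change was -0.80, or -0.68 after rescaling, which left 2 called (18.2%, beside 3.31% of all genes). Their sums per mouse had VEH values of 799, 1093, 519.6, 544 and 485 and MINO values of 438, 279, 300.1, 352 and 479.8 CPM, with *Cd5l* the most abundant. VEH mouse 41 was the highest, and MINO mouse 51 came close to VEH mouse 45, the lowest VEH mouse. *Clec4f*, a lectin restricted to Kupffer cells, had VEH values of 178, 251, 119.7, 118 and 104 and MINO values of 94.3, 62.9, 77.04, 74.9 and 101 CPM (log2 fold change -0.84, standard error 0.22, limma adjusted p = 0.0365), and *Csf1r*, the receptor that macrophages need for survival, had VEH values of 113, 134, 72.8, 79.9 and 72.4 and MINO values of 56.2, 31.2, 34.7, 45.9 and 65.03 CPM (log2 fold change -1.02, standard error 0.23, limma adjusted p = 0.0223). Of *Adgre1*, *Csf1r*, *Cd5l*, *Clec4f* and *Folr2*, which are 5 genes, 2 were called after rescaling. Limma called 0 without VEH mouse 40, 2 without VEH mouse 41, 2 without VEH mouse 44, 2 without MINO mouse 46, 0 without MINO mouse 47, 0 without MINO mouse 48 and 0 without MINO mouse 50 when 1 mouse was left out, and all 5 had an unadjusted limma p under 0.05 where the count was 0.

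Of 12 sinusoidal endothelial markers, all tested, limma called 8 lower and 0 higher (11 lower and 0 higher at an unadjusted limma p under 0.05), or 66.7% lower beside 9.36% of all genes and 91.7% beside 24.5% without adjustment (median -0.81, and -0.69 after rescaling with 4 called, beside 3.31% of all genes). Their sums per mouse had VEH values of 575, 484, 564, 505 and 487 and MINO values of 424, 245, 214, 328 and 399 CPM, with *Eng* the most abundant, and the groups did not overlap. *Stab2*, a scavenger receptor of these cells, had VEH values of 65.7, 52.02, 62.9, 58.3 and 53.6 and MINO values of 36.7, 26.4, 25.4, 35.3 and 46.2 CPM (log2 fold change -0.80, standard error 0.15, limma adjusted p = 0.0167), and *Kdr*, the main VEGF receptor, had VEH values of 58.4, 57.5, 55.7, 52.8 and 45.5 and MINO values of 37.9, 21.3, 19.1, 27.8 and 36.3 CPM (log2 fold change -0.96, standard error 0.18, limma adjusted p = 0.0160). MINO mice 47 and 48 had the lowest values of both. Of *Cdh5*, *Kdr*, *Bmp2*, *Stab1*, *Pecam1*, *Stab2* and *Eng*, which are 7 genes, 4 were called after rescaling. Leaving out 1 mouse left 0 without VEH mouse 40, 6 without VEH mouse 41, 5 without VEH mouse 42, 4 without VEH mouse 44, 5 without VEH mouse 45, 3 without MINO mouse 47, 5 without MINO mouse 48 and 4 without MINO mouse 50 called, and all 7 had an unadjusted limma p under 0.05 where the count was 0. Of 13 stellate cell markers, limma called 5 lower and 0 higher (12 lower and 0 higher at an unadjusted limma p under 0.05), or 38.5% lower beside the 9.36% and 92.3% beside the 24.5% (median -0.52, and -0.40 after rescaling with 2 called, beside the 3.31%). Their sums per mouse had VEH values of 569.9, 615, 519, 474 and 514 and MINO values of 454, 387, 396, 442 and 401 CPM, with *Ecm1* the most abundant. *Reln* had VEH values of 56.9, 47.7, 52.8, 45.7 and 60.4 and MINO values of 35.3, 37.6, 31.1, 41.7 and 38.2 CPM, with no overlap (log2 fold change -0.51, standard error 0.10, limma adjusted p = 0.0184), while *Ecm1* and *Dcn* had log2 fold changes of -0.20 and -0.22 and were not called. Of *Ngfr*, *Hgf*, *Pdgfrb*, *Rgs5* and *Reln*, which are 5 genes, 2 were called after rescaling. When 1 mouse was left out, 0 without VEH mouse 40, 3 without VEH mouse 42, 2 without VEH mouse 44, 4 without VEH mouse 45, 4 without MINO mouse 46, 2 without MINO mouse 47, 3 without MINO mouse 48 and 3 without MINO mouse 50 were called, and all 5 had an unadjusted limma p under 0.05 where the count was 0. The part of these cells in the lower genes of other groups was not tested.

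Of 8 hepatocyte markers limma called 0 (median -0.02, 0 lower and 0 higher at an unadjusted limma p under 0.05). Their sums, led by *Alb*, had VEH values of 119875, 142114, 150293, 135121 and 133223 and MINO values of 122355, 146459, 165083, 133290 and 137668 CPM. Among zonal markers, periportal *Hal* (-0.53, 1 of 9 called) and pericentral *Lgr5* (-1.03, 1 of 10 called) were lower, and *Cyp2e1* had a log2 fold change of 0.43 (limma adjusted p = 0.101). The shares of lower genes, 11.1% and 10%, were near the 9.36% of all genes and are no results about the zonal lists. Of blood and immune cells, *Igha* was lower (1 of 4 tested plasma cell markers, or 25% beside the 9.36%, with 3 lower and 0 higher at an unadjusted limma p under 0.05, or 75% lower beside 24.5% of all genes) and *Csf3r* was lower (the 1 tested neutrophil marker), with log2 fold changes of -1.47 and -0.96 (limma adjusted p = 0.0211 and 0.0207). *Igha* averaged 3.12 CPM in VEH and 0.741 CPM in MINO mice, and *Csf3r* 2.29 and 0.944 CPM. Both thus reached the filter of 1 CPM only through the VEH mice. Their being tested depends on the group where they were higher, so their calls decide nothing about plasma cells or neutrophils. Of *Hal*, *Lgr5*, *Igha* and *Csf3r*, which are 4 genes, 4 were called after rescaling. Limma called 0 without VEH mouse 40, 2 without MINO mouse 47 and 3 without MINO mouse 50 when 1 mouse was left out, and all 4 had an unadjusted limma p under 0.05 where the count was 0. Limma called 0 of the 3 monocyte, 1 T cell, 1 dendritic cell, 4 cholangiocyte, 2 mesothelial, 5 red blood cell, 1 platelet and 2 adrenal markers that were tested, with 3 monocyte markers lower at an unadjusted p under 0.05, beside 24.5% of all genes lower. Without VEH mouse 45, limma called the monocyte marker *Lyz2* and the plasma cell marker *Ighm* lower (limma adjusted p = 0.0354 and 0.0239). Markers of NK cells, B cells, adipose tissue and skeletal muscle were all below the filter, and summed to at most 10.1, 5.38, 0.984 and 0.779 CPM in any mouse. The 10 exocrine pancreas markers had a median log2 fold change of 1.81 and limma called 0 (0 lower and 0 higher at an unadjusted limma p under 0.05). Their sums had VEH values of 21.2, 18.6, 11.2, 26.6 and 12.2 and MINO values of 1043, 19.1, 24.7, 14.9 and 15.1 CPM, with MINO mouse 46 far above the other 9 mice. *Ctrb1* was the most abundant of them in MINO mouse 46, at 182 CPM, and *Cela1*, at 108 CPM there, was the most abundant in the other 9. The log2 fold change of *Cela1* was 0.42 with all mice and -0.16 without MINO mouse 46, called in neither. Of 2 intestinal markers limma called 0 (0 lower and 1 higher at an unadjusted limma p under 0.05, beside 4.37% of all genes higher), and limma called 1 of them, *Fabp2*, without MINO mouse 51 (limma adjusted p = 0.0343) and the other, *Lgals4*, without VEH mouse 42 (0.0299). *Fgf15* was not in the deposited table.

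**Figure D5:**
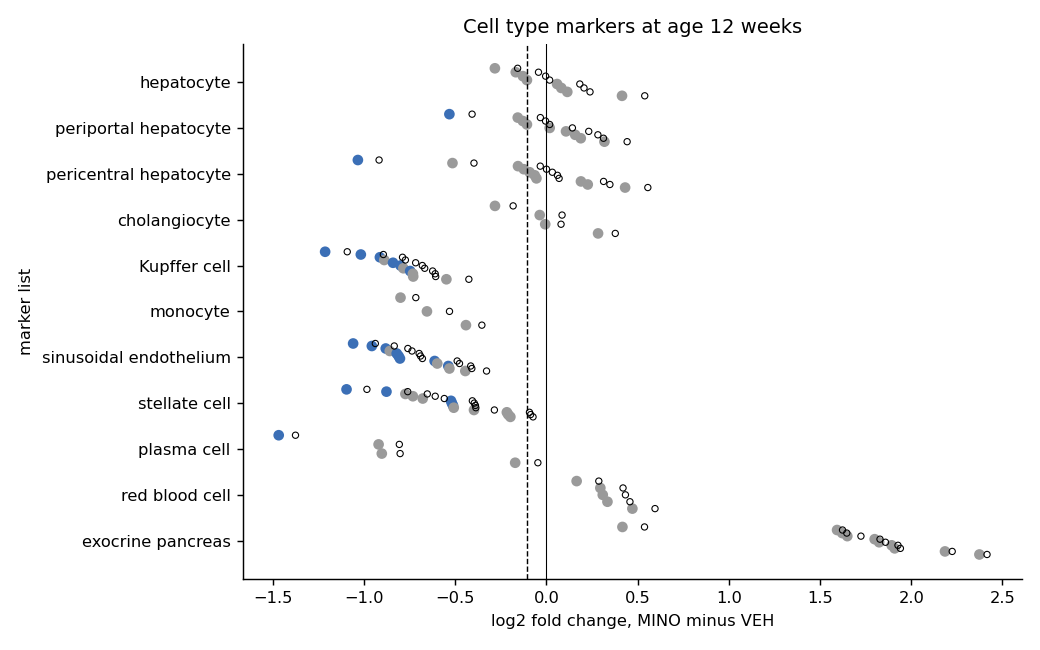
Log2 fold change, MINO minus VEH, of each tested marker of 11 cell types or tissues, in blue with a limma adjusted p under 0.05 and in gray otherwise, with the rescaled value as an open circle and the median of all genes as a dashed line. The 12 endothelial and 11 Kupffer cell markers all lie below 0 in both scalings.

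The genes called at age 12 weeks were also looked up in the 5 VEH and 5 MINO mice of age 18 weeks, which share no animal with them. Of the lower genes, 1190 were tested there, and 1020 had a log2 fold change below 0 (85.7%, against 59.2% of all 12839 genes tested at both ages), with a median of -0.19 against -0.61 at age 12 weeks. Of the higher genes, 121 of 129 were above 0 (93.8%, against 40.8% of all), with medians of 0.30 and 0.58. Both sets were chosen by their values at age 12 weeks, and this selection enlarges their medians at that age. The medians thus cannot decide whether an effect was smaller at age 18 weeks. At age 18 weeks limma called 0 of 13188 genes, with a lowest adjusted p of 0.0863. At an unadjusted limma p under 0.05 there, 382 of the 1190 lower genes were lower and 60 of the 129 higher genes were higher, while of all 12839 genes 1467 were lower and 718 higher. *Acot4* had a log2 fold change of 0.78 (limma adjusted p = 0.0863) at age 18 weeks, *Abcb11* of -0.58 (limma adjusted p = 0.131), *Por* of 0.36 (limma adjusted p = 0.342), *Pxdn* of -0.20 (limma adjusted p = 0.536) and *Clec4f* of 0.03 (limma adjusted p = 0.947). The medians of the Kupffer cell and endothelial lists were 0.03 and -0.06. A limma interaction of treatment and age over 13215 genes in all 20 mice gave 0 genes (0%) with an adjusted p under 0.05, the lowest being 0.0836, and 1248 with an unadjusted one, so that no gene's effect was shown to differ between the ages.

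The called genes also differed in length. The longest annotated transcript had a median of 4922 bases in lower genes, 2318 in higher genes and 3157 in all tested genes with a sequence (12955 of 13189). After rescaling the medians of lower and higher genes were 4876 and 2353 bases. Median GC content was 50.4% in lower, 49.1% in higher and 49.6% in all genes.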

How the data were processed

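The submitters' processing notes name STAR 2.7.8a, Partek 10.0.22.1023 and the builds GRCm38 and mm10, while the annotation and the way of counting are not given in the sources used here. The authors deposited CPM per gene symbol, 1 table for each age. In the 12-week libraries, between 74.4% and 78.9% of low values were whole numbers of reads (within 0.02 reads), so counts were not recovered and no count test was run. A floor of 3 reads was 0.105 to 0.241 CPM in these libraries, which covers counting error alone, since reads that carry no molecular identifier may be copies of 1 molecule. No batch labels are given, and mouse numbers show separate animals.

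The log2(CPM + 0.5) values of genes past the filter of 1 CPM were fitted with limma 3.58.1 (with a trend of variance on mean) in R 4.3.3, with Benjamini-Hochberg adjustment. The pseudocount makes changes of low genes look smaller than they are. The interaction was fitted to all 20 mice with age as a term. The alternatives were other pseudocounts and filters, rescaling, limma without the trend, the 4 listed mice per group and leaving out each mouse. The method was checked on simulated data with independent noise in each gene and mouse. Such data cannot show how the counts depend on single mice or on rescaling.

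Named genes were the 10 highest and 10 lowest log2 fold changes among called genes averaging 5 CPM or more with no overlap of groups, predicted genes left out; up to 5 called members of each of 43 lists; 17 genes chosen by name; and the 2 most abundant markers of each cell type list. Members and lists were chosen with earlier results of these data known. Gene positions and lengths came from GENCODE M21 and promoters from RefSeq on GRCm38.p6.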

Additional observations from a re-analysis of the deposited data

Results flagged for a closer look

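In 12 of 248 groups of 5 mice, 1 mouse stood far from the 4 others of its group on the log2 scale. Chance flags about 1 in 20 groups. Mice that were far above the rest were *Pxdn* in MINO mouse 51 (8.14 CPM, others 5.29 to 5.71 CPM), *Gclc* in VEH mouse 44 (305 CPM, others 203 to 212 CPM), *Tsku* in VEH mouse 45 (156 CPM, others 25.8 to 42.3 CPM), *Nr1h4* in VEH mouse 41 (96.8 CPM, others 76.05 to 78.5 CPM) and *Slc27a5* in VEH mouse 41 (1489 CPM, others 1072 to 1114 CPM). Of markers of other cells and tissues, the high ones were *Lyz2* in MINO mouse 51 (65.6 CPM, others 41.01 to 46.2 CPM), *Hba-a2* in VEH mouse 40 (343 CPM, others 146 to 185 CPM), *Cela1* in MINO mouse 46 (108 CPM, others 11.3 to 17.2 CPM) and *Ctrb1* in MINO mouse 46 (182 CPM, others 0.0001 to 1.69 CPM). Mice that were far below the rest were *Nr5a2* in MINO mouse 48 (55.2 CPM, others 69.1 to 73.97 CPM), *Fads2* in VEH mouse 41 (551 CPM, others 701 to 724 CPM) and *Baat* in MINO mouse 47 (192 CPM, others 206 to 209 CPM). VEH mouse 41 accounted for 3 of these values.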

How the results depend on the processing

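Of 124 named genes, 85 were called, and none of these changed direction under any alternative tried, while 16 were still called by limma without each single mouse. A minimum mean of 10 CPM, with fewer genes tested, gave 726 lower genes by adjusted p, and 52 lower and 27 higher by the 2-fold criteria. A pseudocount of 0.1 gave 229 lower genes by the 2-fold criteria. Rescaling gave 436 lower and 309 higher genes by adjusted p and 60 lower by the 2-fold criteria. With the 4 listed mice per group, and so fewer samples, limma gave 0 lower and 0 higher genes by adjusted p, with 2230 and 338 at an unadjusted p under 0.05. Leaving out 1 mouse gave 101 to 1389 lower and 22 to 183 higher genes by adjusted p, and 83 to 223 lower and 37 to 57 higher by the 2-fold criteria. Among genes that were not called, the log2 fold change turned to 0.0174 for *Cps1*, 0.000245 for *Glul*, 0.0854 for *Spp1* and 0.0875 for *Itga2b* after rescaling, and to -0.0336 for *Cyp7b1* and 0.0437 for *Spp1* in the 4 listed mice. It crossed 0 when 1 mouse was left out for *Itga2b* (-0.0993 to 0.122), *Pck1* (-0.0834 to 0.333), *Cyp7b1* (-0.0660 to 0.213), *Spp1* (-0.101 to 0.0187) and *Cela1* (-0.162 to 0.639). Fits with 1 mouse left out gave 101 lower genes by adjusted p without VEH mouse 40 and 1389 without MINO mouse 51, against 1235 with all 10. The causes of these differences between settings were not tested.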
